A study of Canis lupus familiaris with 77 samples.

Results

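The miRNAs cfa-miR-25, cfa-miR-92a and cfa-miR-92b were taken from the table by name, a row being a member when its name, read up to the first separator, was one of these 3. All 3 members were found, among 650 miRNAs with at least 1 read. They were measured by miR-seq, the sequencing of small RNA of miRNA length, in 76 libraries. These came from 16 tissues of 5 male Beagles, untreated and all of the same age, so that libraries of different tissues share dogs. There were 5 libraries each of liver, heart, testis, lung, Skeletal Muscle: Quadraceps, kidney, thymus, brain, duodenum, jejunum, ileum, pancreas, plasma (2 mL in K2EDTA) and bone marrow (2 mL), with 4 of colon and 2 of sciatic nerve. Every group shares the breed, the sex and the absence of treatment, and the organs were flushed with phosphate buffered saline before they were collected. Each tissue sample holds a mixture of cells, so fewer cells of a type and less RNA per cell cannot be told apart in any value below. RNA of bone marrow and of plasma was isolated by other procedures than that of the organs, which cannot be told apart from tissue.

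A miRNA finds its messenger RNA targets mainly through its seed, a short stretch near its 5′ end, and miRNAs with the same seed can act on many of the same messages. The 3 members share one seed and belong to the miR-25/92 family, whose other members are miR-32, miR-363 and miR-367. Their genes lie apart from each other. The miR-25 gene sits with those of miR-106b and miR-93 inside MCM7, a gene of the DNA replication machinery. The same mature miR-92a is made from 2 genes, MIR92A-1 in the miR-17 to miR-92 cluster, a group of miRNAs well known from dividing and blood-forming cells, and MIR92A-2 in the related cluster of miR-106a and miR-363. The miR-92b gene has no miRNA gene beside it, and miR-92b is known from neural progenitors and brain. These positions were read from the dog gene table of assembly UU_Cfam_GSD_1.0, and counts of miR-92a cannot be divided between its 2 genes.

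Levels are given in RPM, the reads of a miRNA scaled to a common total of reads on miRNAs in each library. Libraries had from 157871 to 7896424 such reads with a median of 1364823, so that the upper limit behind a count of 0, which is 3 reads, lay between 0.380 and 19.0 RPM. These limits cover counting error only. Of the markers checked for the tissues, miR-9, miR-124 and miR-128 had their highest tissue median in brain, miR-122 in liver, miR-206 in skeletal muscle, miR-202 and miR-34c in testis, miR-223 in bone marrow and miR-338 in sciatic nerve, while miR-192 and miR-215, set for the gut, were highest in jejunum. The thymus had no such marker, since miR-150 and miR-142, the lymphocyte and leukocyte miRNAs set for it, were highest in ileum and plasma. In 8 libraries every miRNA set as a marker for the labelled tissue was below 10% of its highest library of that tissue. These were testis replicates 2 and 3, thymus replicates 2, 3 and 5, duodenum replicates 3 and 4, and skeletal muscle replicate 4. The miRNAs set for thymus and duodenum were highest in other tissues, so low values there do not by themselves put the label in doubt. Calls of the members that change with the 8 libraries, and the neighbour counts that do so in the comparisons described, are given with all 76 libraries and with the remaining 68. Replicate numbers are names only, and which libraries come from the same dog is not given in the labels.

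Tissues were also compared on the counts with edgeR, each against the unweighted mean of the other 15, and log2 fold changes are given with their SE and a p adjusted over the 480 miRNAs tested. The scaling of libraries bears on these values. TMM factors had a median of 2.16 in brain, 1.54 in testis and 0.579 in plasma, and the median log2 fold change of the tested miRNAs was 0.13 in brain, -0.59 in plasma and -0.97 in bone marrow. With library size alone these medians were 1.22, -1.02 and -0.66. The part of the calls that were higher then went from 61.6% to 80.6% in brain, from 53.0% to 39.9% in plasma, from 40.1% to 55.6% in bone marrow, from 67.9% to 81.4% in testis, from 63.3% to 75.4% in sciatic nerve, from 80.3% to 91.0% in thymus, from 70.3% to 42.1% in kidney, from 68.4% to 78.7% in ileum and from 61.7% to 39.9% in skeletal muscle. In liver it went from 65.1% to 38.5% with DESeq2 size factors. Fold changes of the members are therefore also given relative to the median of all miRNAs. Between TMM and library-size scaling these relative values moved less than the fold changes themselves in brain, plasma and bone marrow, whereas with DESeq2 size factors this did not hold in plasma.

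The members had unlike patterns over the 16 tissues. By tissue median, miR-25 was highest in plasma and lowest in kidney, miR-92a was highest in plasma and lowest in bone marrow, and miR-92b was highest in brain and lowest in jejunum. These tissue medians spanned 1115 to 22520.3 RPM for miR-25, 3412 to 30833 RPM for miR-92a and 3.27 to 27082 RPM for miR-92b. Summed over the 3 members, plasma had the highest median at 53876 RPM, followed by brain at 34072 RPM, testis at 21946 RPM and sciatic nerve at 21693 RPM, and skeletal muscle had the lowest at 4911 RPM. In plasma the sum was made of miR-25 and miR-92a, in brain mostly of miR-92b, and in testis and sciatic nerve mostly of miR-92a.

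**Figure D1:**
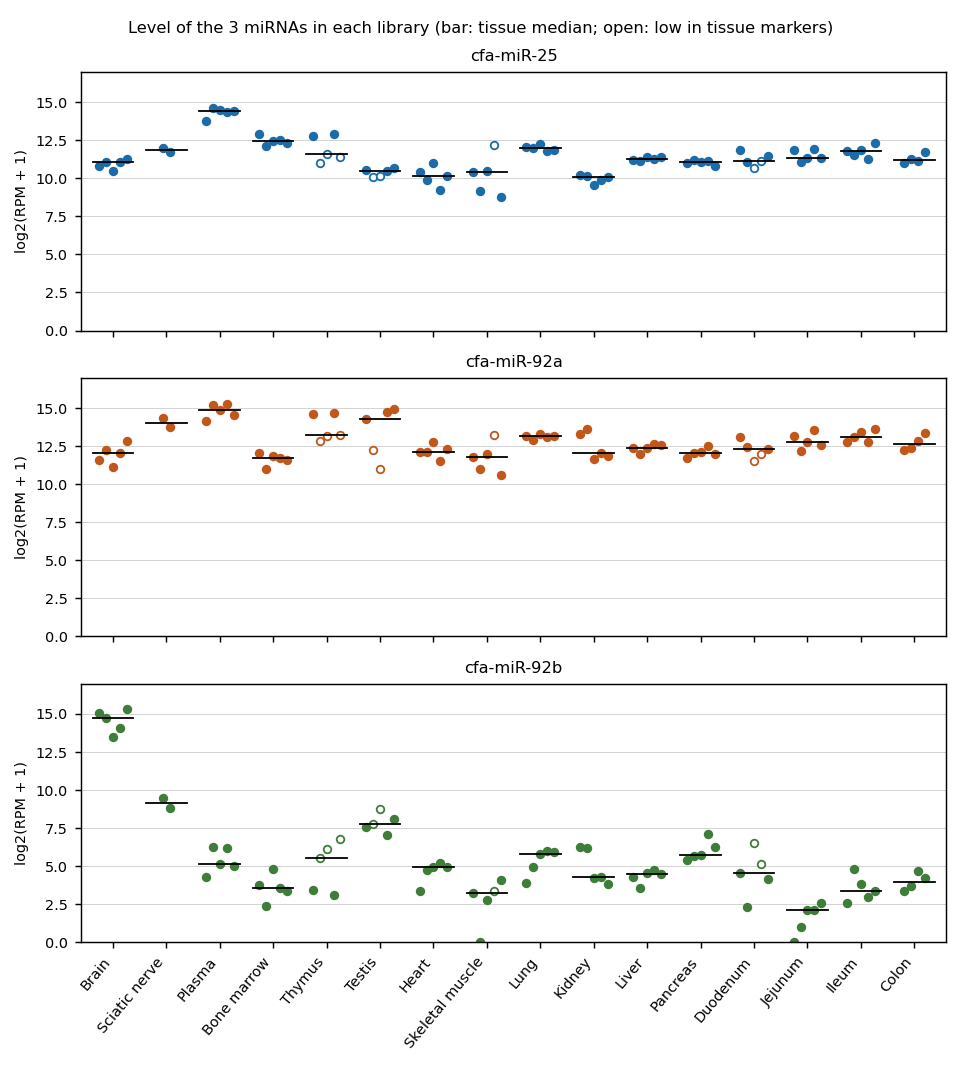
Level of each member in each library as log2(RPM + 1), by tissue, with a bar at the tissue median and open circles for the 8 libraries low in the markers of their tissue. miR-25 is highest in plasma, miR-92a is high in plasma, sciatic nerve and single libraries of testis and thymus, and miR-92b stands at 11554 RPM or more in brain and at 722 RPM or less in every other library.

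miR-92b was far higher in brain than in any other tissue. The brain libraries had 33554, 27082, 11554, 17025 and 41841 RPM of miR-92b, and the highest library of any other tissue, a sciatic nerve sample, had 722 RPM. All 5 brain libraries thus lay above every other library, as they did for 84 of the 650 miRNAs, or 12.9%. The mean of 26211 ± 12229 RPM (SD, n = 5) was 433 times the mean of all other libraries, and the brain median was 37.5 times the highest other library. Tissue enrichment (TE), which needs a ratio of means above 5 and an adjusted p below 0.05, was therefore met (adjusted p = 7.18e-07, two-sided exact rank-sum test), as it was for 29.1% of the miRNAs in brain. In the edgeR comparison miR-92b was higher in brain by 8.62 ± 0.34 on the log2 scale (adjusted p = 1.96e-34), where 45.2% of the miRNAs were called higher. Relative to the median of all miRNAs the difference was 8.49, and 8.47 with library size alone. By the median, miR-92b ranked 10 among all miRNAs of brain.

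The other members had no such pattern in brain. The brain libraries had 1812, 2164, 1453, 2177 and 2460.2 RPM of miR-25 and 3087, 4826, 2238, 4183 and 7420.2 RPM of miR-92a. These values fell inside the range of the other tissues for both. In edgeR miR-25 was lower in brain by -1.59 ± 0.23 (adjusted p = 5.30e-09) and miR-92a by -1.85 ± 0.30 (adjusted p = 7.29e-08), where 28.1% of the miRNAs were called lower. Under library size scaling miR-25 stood at -0.54 and was not called (adjusted p = 0.0675), and miR-92a at -0.88 was (adjusted p = 0.0199). Relative to the median of all miRNAs, miR-25 was at -1.72 and miR-92a at -1.98, and with library size alone at -1.76 and -2.10. In the fit without the 8 libraries miR-25 was lower in brain by -0.74 ± 0.21 (adjusted p = 0.00117) and miR-92a by -0.998 ± 0.23 (adjusted p = 0.000117), or by -1.63 and -1.89 relative to the median.

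Outside brain miR-92b was a low miRNA with an order of its own. The sciatic nerve libraries had 722 and 443 RPM, and the testis libraries 192, 215, 431, 132 and 275 RPM. Both sciatic nerve libraries lay above every testis library. Every testis library lay above every lung library, the next tissue by median, which had at most 61.3 RPM. Testis was not clear of all lower tissues, since pancreas replicate 4 had 139.3 RPM, above testis replicate 4 at 132 RPM. The share of all miRNAs with such gaps was not counted. In edgeR miR-92b was higher than the mean of the other tissues in sciatic nerve, by 3.44 ± 0.44 (adjusted p = 1.31e-09, 24.8% of miRNAs called higher), and in testis, by 2.26 ± 0.35 (adjusted p = 1.34e-07, 34% called higher). The sciatic nerve values rest on 2 libraries, whose origin (single nerves or parts of a pool) the sources used here describe in different ways. The testis library with the most miR-92b, replicate 3 at 431 RPM, is the one with the least of the testis markers, and without the 8 libraries the testis difference was 1.66 ± 0.39 (adjusted p = 0.000294).

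At the lower end miR-92b was close to the limit of counting. The jejunum libraries had 0, 2, 5, 11 and 6 reads of miR-92b, or 0 to 4.82 RPM, and the bone marrow libraries had 2, 1, 5, 2 and 2 reads. In edgeR it was called lower in jejunum (-4.40 ± 0.67, adjusted p = 1.12e-07, 13.1% of miRNAs called lower) and in bone marrow (-2.65 ± 0.66, adjusted p = 0.000593, 24.6% called lower). Relative to the median of all miRNAs these differences were -4.31 and -1.67. It was also called lower in ileum (-2.29, 8.75% of miRNAs called lower), skeletal muscle (-2.24, 16.5%), colon (-1.73, 6.46%) and liver (-1.34, 12.5%). The colon call was lost without replicate 1, 2 or 5, with adjusted p from 0.0669 to 0.106, and the liver call without replicate 2, 3 or 5, with adjusted p from 0.0514 to 0.0773. In duodenum, where 3.75% of the miRNAs were called lower with all libraries, miR-92b stood at -0.01 with them and at -1.63 ± 0.55 without the 8 (adjusted p = 0.0224 in edgeR). In pancreas, where 21.2% were called higher, it stood at 0.71 (adjusted p = 0.173) and at 1.35 ± 0.31 without the 8 (adjusted p = 0.000211).

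miR-25 was higher in plasma than in any other tissue. The plasma libraries had 13891, 25108, 23008, 21592 and 22520.3 RPM of miR-25, and the highest library of another tissue, a thymus sample, had 7803 RPM. No plasma library overlapped with any other library, as for 11 of the 650 miRNAs, or 1.69%. The mean of 21224 ± 4297 RPM (SD, n = 5) was 7.70 times the mean of all other libraries, so that miR-25 was TE in plasma (adjusted p = 3.06e-06, two-sided exact rank-sum test), as were 4.31% of the miRNAs. Its plasma median was 2.89 times the highest other library. In edgeR the difference was 3.87 ± 0.14 (adjusted p = 1.19e-36, 27.9% of miRNAs called higher), or 4.46 relative to the median of all miRNAs. With library size alone it was 3.09, or 4.11 relative to that median.

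In plasma miR-92a was high as well, but not apart from the other tissues. The plasma libraries had 18079, 37148, 30833, 39720 and 23888 RPM of miR-92a. Single libraries of testis reached 31665 RPM and of thymus 25847 RPM, so the groups overlapped. The mean was 3.87 times that of all other libraries, below the ratio of 5 that TE needs, although the rank-sum test passed (adjusted p = 0.000182, two-sided exact). The ratio was 5.61 with medians in place of means and 6.33 with TMM-scaled counts, and either would have met the criteria. In edgeR miR-92a was higher in plasma by 2.86 ± 0.19 (adjusted p = 3.31e-22), or 3.44 relative to the median of all miRNAs. miR-92b, at 18.2 to 75.3 RPM in plasma, was at 0.56 ± 0.42 (adjusted p = 0.301), and at 0.76 ± 0.33 without the 8 libraries (adjusted p = 0.0446).

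**Figure D2:**
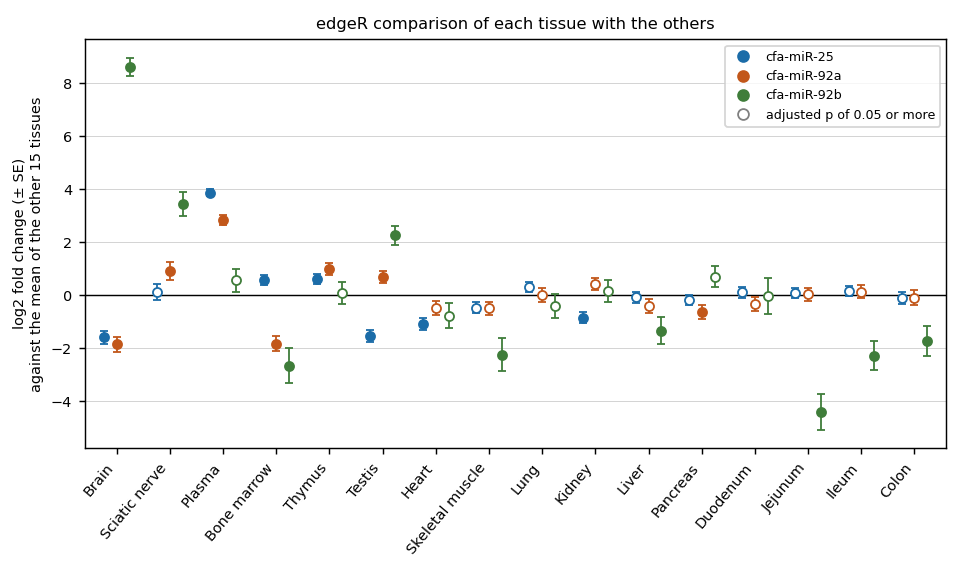
Log2 fold change and SE from edgeR for each member in each tissue against the mean of the other 15, with filled points where the adjusted p is under 0.05. miR-92b reaches 8.62 in brain and -4.40 in jejunum, miR-25 and miR-92a reach 3.87 and 2.86 in plasma, and miR-25 and miR-92a are called in opposite directions in bone marrow (0.59 and -1.82) and in testis (-1.53 and 0.68).

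The miRNAs of red blood cells stood high in the same plasma libraries. miR-451 and miR-144, made in erythroid cells, had 52993 to 116508 RPM and 1925 to 3979 RPM in plasma, and miR-486, an miRNA of erythroid and muscle cells, had 423281 to 760806 RPM. All 3 were called higher in plasma, where 27.9% of all miRNAs were, and all 3 in bone marrow, where 16.5% were, with median differences of 6.19 and 3.37 on the log2 scale. The plasma library with the lowest miR-25, replicate 1, also had the lowest miR-451, miR-144 and miR-92a, and the highest miR-486, at 760806 RPM. RPM are parts of a common total, so a higher level of 1 miRNA leaves less of it for the others. Replicate 1 also had the fewest reads on miRNAs of the plasma libraries, 274790 against 1387777 or more. The part of miR-486 or of depth in its low values was not tested. The markers of leukocytes, miR-142 and miR-223, were present too, at 12752 to 34644 RPM and 116 to 1501 RPM. Their part in the levels of the members in plasma was not tested.

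Bone marrow set the members apart from each other. The bone marrow libraries had 7781, 4552, 5680.2, 5781 and 5242 RPM of miR-25, the highest tissue median after plasma. They had 4159, 2021, 3675, 3412 and 3063 RPM of miR-92a, the lowest median of the 16 tissues. In each of the 5 libraries miR-25 had more reads than miR-92a. In edgeR miR-25 was higher in bone marrow by 0.59 ± 0.19 (adjusted p = 0.00669, 16.5% of miRNAs called higher) and miR-92a lower by -1.82 ± 0.29 (adjusted p = 3.33e-07). Relative to the median of all miRNAs, miR-25 was at 1.57 and miR-92a at -0.85, and with library size alone at 1.75 and -0.66.

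In the other tissues miR-25 varied less. Kidney had 1222, 1167, 767, 965 and 1115 RPM and heart 602 to 2038 RPM with a median of 1165 RPM, the lowest medians. Both were called lower in edgeR, kidney by -0.84 ± 0.21 (adjusted p = 0.00100, 10.2% of miRNAs called lower) and heart by -1.08 (17.3% called lower). Testis, at 1087 to 1668 RPM, was lower by -1.53 ± 0.23 (adjusted p = 4.49e-08, 16% called lower), and this was -1.81 without the 8 libraries. Skeletal muscle had 1378, 567, 1420, 4772 and 443 RPM, and its highest value came from replicate 4, the library with 9.07 RPM of miR-1 and 676 RPM of miR-133a, miRNAs of muscle fibres. Without the 8 libraries miR-25 was lower in skeletal muscle by -1.11 ± 0.24 (adjusted p = 0.000107), and with all of them it stood at -0.46 and was not called. miR-92a in the same 5 libraries was 3524, 2002, 4025 and 9694 RPM in replicates 1 to 4 and 1536 RPM in replicate 5, and went from -0.50, not called, to -1.003 ± 0.26 (adjusted p = 0.00112). Without the 8 libraries 96 of 477 miRNAs were called lower in skeletal muscle, and the median of all miRNAs was -0.38. Leaving out replicate 4 alone also made both calls, at -0.99 for miR-25 and -0.84 for miR-92a.

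The SD of miR-92a was widest in testis, at 13275 RPM, followed by thymus at 9292 RPM and plasma at 9024 RPM. The testis libraries had 20279, 4927, 2023, 27461 and 31665 RPM. The 2 low values came from replicates 2 and 3, which also had the least of the testis markers, with 241 and 0.493 RPM of miR-202 against 3340.3 to 5345 RPM in the other 3, and 4631 and 582 RPM of miR-34c against 49237 to 93353 RPM. Across the same libraries miR-25 spanned only 1087 to 1668 RPM. In edgeR miR-92a was higher in testis by 0.68 ± 0.23 (adjusted p = 0.0117), or 0.36 relative to the median of all miRNAs. This call was lost without replicate 1, 4 or 5, with values of 0.60, 0.40 and 0.35. Without the 8 libraries the difference was 0.98 ± 0.24 (adjusted p = 0.000682), or 1.19 relative to the median.

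In testis miR-92a was high together with the miRNAs of its second gene. The neighbours of MIR92A-2 include miR-363, which has the same seed, and miR-106a and miR-20b, which carry the seed of the miR-17 family. miR-363 had 3992, 346, 17.3, 6134 and 6676 RPM in testis replicates 1 to 5, and miR-106a had 181, 25.5, 1.48, 342 and 432 RPM. Both followed the order of miR-92a in these 5 libraries, and so did miR-17-5p of the first gene's cluster, at 166, 40.1, 24.2, 296 and 338 RPM. The testis marker miR-202, which lies beside neither gene, had the same order, so this order is not particular to the neighbours. How many of all miRNAs share it was not counted. In edgeR 4 of the 5 neighbours of the second gene were called higher in testis, with 4.28 ± 0.29 for miR-106a, 3.77 ± 0.25 for miR-363, 3.61 ± 0.35 for miR-20b and 2.20 ± 0.47 for miR-18b, against a median of 0.32 for all miRNAs, of which 34% were called higher. Of the 6 neighbours of the first gene none was called in edgeR, also not at an unadjusted p below 0.05, while DESeq2 and edgeR with library size alone each called 2 higher. Without the 8 libraries edgeR called 1 of them higher, and 4 of the 5 neighbours of the second gene, with 4.72 ± 0.25 for miR-106a and 4.19 ± 0.17 for miR-363. The opposite arm from the first gene itself, miR-92a-1-5p, was also called higher in testis, on 46 reads in all, as given below. It too followed the order of miR-92a in the 5 libraries. These values do not divide miR-92a between its 2 genes.

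**Figure D3:**
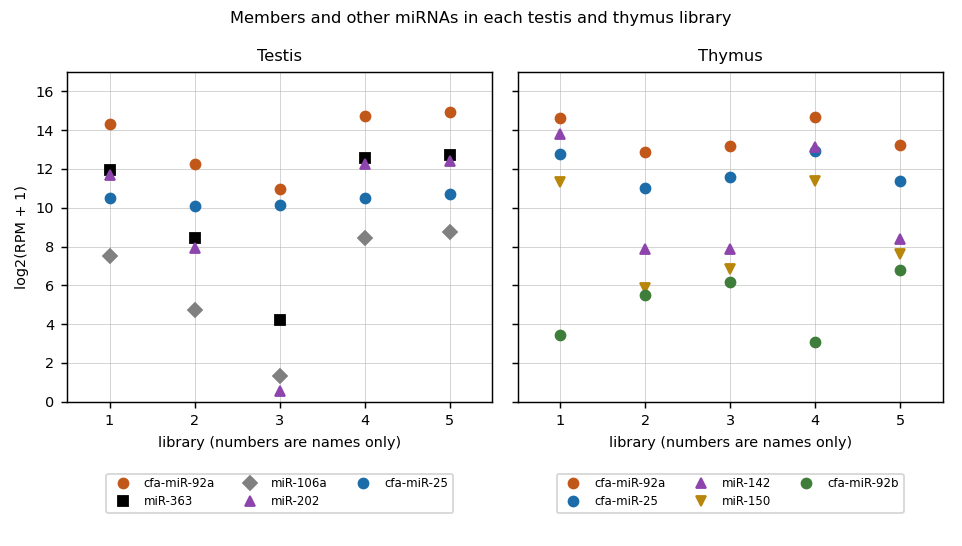
Level as log2(RPM + 1) of the members and of other miRNAs in each testis library (left) and each thymus library (right), whose numbers are names only. In testis miR-92a, miR-363, miR-106a and the marker miR-202 are low in replicates 2 and 3 while miR-25 stays between 1087 and 1668 RPM, and in thymus miR-25 and miR-92a are high in replicates 1 and 4, as are the leukocyte miRNAs miR-142 and miR-150, while miR-92b is low there.

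In thymus all 3 members differed between 2 sets of libraries. Replicates 1 and 4 had 6967 and 7803 RPM of miR-25 and 25515 and 25847 RPM of miR-92a. Replicates 2, 3 and 5 had 2059, 3073 and 2665 RPM of miR-25 and 7417, 9309 and 9640.2 RPM of miR-92a. For miR-92b the order was the opposite, with 10.003 and 7.61 RPM in replicates 1 and 4 and 44.3, 70.2 and 110.4 RPM in the others. These rest on 8, 7, 123, 26 and 56 reads in replicates 1 to 5. Replicates 1 and 2 thus differ mainly in depth, with 799796 and 157871 reads on miRNAs, and the limit behind a 0 in replicate 2 was 19.0 RPM. The leukocyte miRNA miR-142 had 14022 and 8991 RPM in replicates 1 and 4 and 234 to 335 RPM in the others, and miR-150, a miRNA of mature lymphocytes, had 2543 and 2689 RPM against 57.0 to 197 RPM. miR-486 had the reverse order, with 17092 and 4498 RPM against at least 43525 RPM. Their part in the levels of the members was not tested. Of the neighbours of the second miR-92a gene, 3 of 5 were called higher in thymus, miR-20b by 2.64 ± 0.36, miR-106a by 2.51 ± 0.32 and miR-363 by 1.87 ± 0.30, where 21.2% of all miRNAs were called higher. The count was again 3 of 5 without the 8 libraries, with miR-20b at 2.03 ± 0.40, miR-106a at 2.24 ± 0.34 and miR-363 at 1.57 ± 0.26. In all 5 thymus libraries miR-363 was at 481 to 887 RPM.

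The thymus comparisons depend on these libraries. With all 5, edgeR called miR-25 higher by 0.62 ± 0.18 (adjusted p = 0.00814, 21.2% of miRNAs called higher) and miR-92a by 1.00 ± 0.22 (adjusted p = 0.000345), and miR-92b stood at 0.08 ± 0.42. The call of miR-25 was lost without replicate 4, at 0.34 with an adjusted p of 0.260. With replicates 1 and 4 alone, in the fit without the 8 libraries, miR-25 was at 0.84 ± 0.27 (adjusted p = 0.0203), miR-92a at 1.19 ± 0.29 (adjusted p = 0.00133) and miR-92b at -2.94 ± 0.72 (adjusted p = 0.00164). Relative to the median of all miRNAs, miR-25 went from 0.44 to 1.31, miR-92a from 0.81 to 1.66 and miR-92b from -0.11 to -2.48.

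Sciatic nerve was high in miR-92a, with 20822 and 13821 RPM, while its miR-25 of 4094 and 3484 RPM lay among the other tissues. In edgeR miR-92a was higher there by 0.93 ± 0.35 (adjusted p = 0.0253), and miR-25 stood at 0.11 ± 0.30 (adjusted p = 0.920). The miR-92a call was lost without replicate 1 (0.63, adjusted p = 0.469) and without the filter on low counts (0.82, adjusted p = 0.0863). In kidney miR-92a was spread from 3288 to 12711 RPM, with replicates 1 and 2 at 10021 and 12711 RPM and the others at 4290 RPM or less, and it was not called (0.42 ± 0.24, adjusted p = 0.173). The same 2 kidney libraries were the highest in miR-92b, at 76.1 and 71.4 RPM against 12.9 to 18.3 RPM. In pancreas miR-92a was called lower by -0.63 (adjusted p = 0.0497, 19.2% of miRNAs called lower), a call lost without replicate 1 or 5, at -0.75 and -0.59, with DESeq2 size factors, at -0.44, and without the 8 libraries, at -0.39. With those 8 left out miR-92a was also called lower in heart, by -0.65 ± 0.23 (adjusted p = 0.0149), and in liver, by -0.81 ± 0.23 (adjusted p = 0.00352), where with all libraries it stood at -0.47 and -0.40 and was not called.

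The share of each member in the reads of the 3 does not depend on how libraries are scaled. Since miRNAs differ in how well they are ligated, shares and ratios between miRNAs are compared between tissues only. In brain miR-92b made up 72.8% to 87.3% of the 3 with a median of 79.5%, and in no other library more than 11.96% (adjusted p = 1.73e-06, two-sided exact rank-sum test). In bone marrow miR-25 made up 60.5% to 69.2% with a median of 63.1%, above every other library, of which the highest was a plasma sample at 48.5% (adjusted p = 1.73e-06, exact). The adjusted p covers 48 combinations of member and tissue, of which 12 passed. The shares of the 3 members make up the whole in each library, so a high share of a member lowers those of the others. The 12 are therefore not separate findings. In brain the high share of miR-92b leaves little for the other members together. There miR-25 had a median share of 6.35% and miR-92a of 14.3%, against 28.7% and 70.8% in all other libraries.

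In plasma miR-25 had 35.2% to 48.5% of the 3, with a median of 42.7% (adjusted p = 0.00451, exact rank-sum test). There miR-92a had a median of 57.2% (adjusted p = 0.0433, exact). miR-92b had little of the reads in plasma, so these results are not separate. The share of miR-92a passed only with all 5 plasma libraries, with adjusted p from 0.0606 to 0.0809 when 1 was left out. In kidney and heart the share of miR-92a was above that of the other libraries pooled, whose median was 70.01%, with medians of 81.4% (adjusted p = 0.00726, exact) and 81.1% (adjusted p = 0.0199, exact). Testis had the highest median share of miR-92a, at 92.4%, but ran from 56.2% to 94.6%, and it passed without the 8 libraries (adjusted p = 0.000319, exact) but not with them (adjusted p = 0.0605). The reverse held for miR-92b in testis, with a median share of 0.876% (adjusted p = 0.0433 with all libraries and 0.207 without the 8, exact), and that call was also lost without replicate 1, 2, 3 or 5, with adjusted p from 0.0785 to 0.0945. miR-25 in kidney, with a median of 18.3% (adjusted p = 0.0433, exact), was lost without replicate 1, 2, 3 or 4, with adjusted p from 0.0691 to 0.0901. Leaving out the 8 libraries also let the shares of miR-25 in testis (adjusted p = 0.0066, and 0.0567 with all libraries, exact) and of miR-92b in pancreas (adjusted p = 0.0261, and 0.0566 with all libraries, exact) pass. In jejunum miR-92b had a median share of 0.0208%, the lowest of the 16 tissues (adjusted p = 0.000162, exact).

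**Figure D4:**
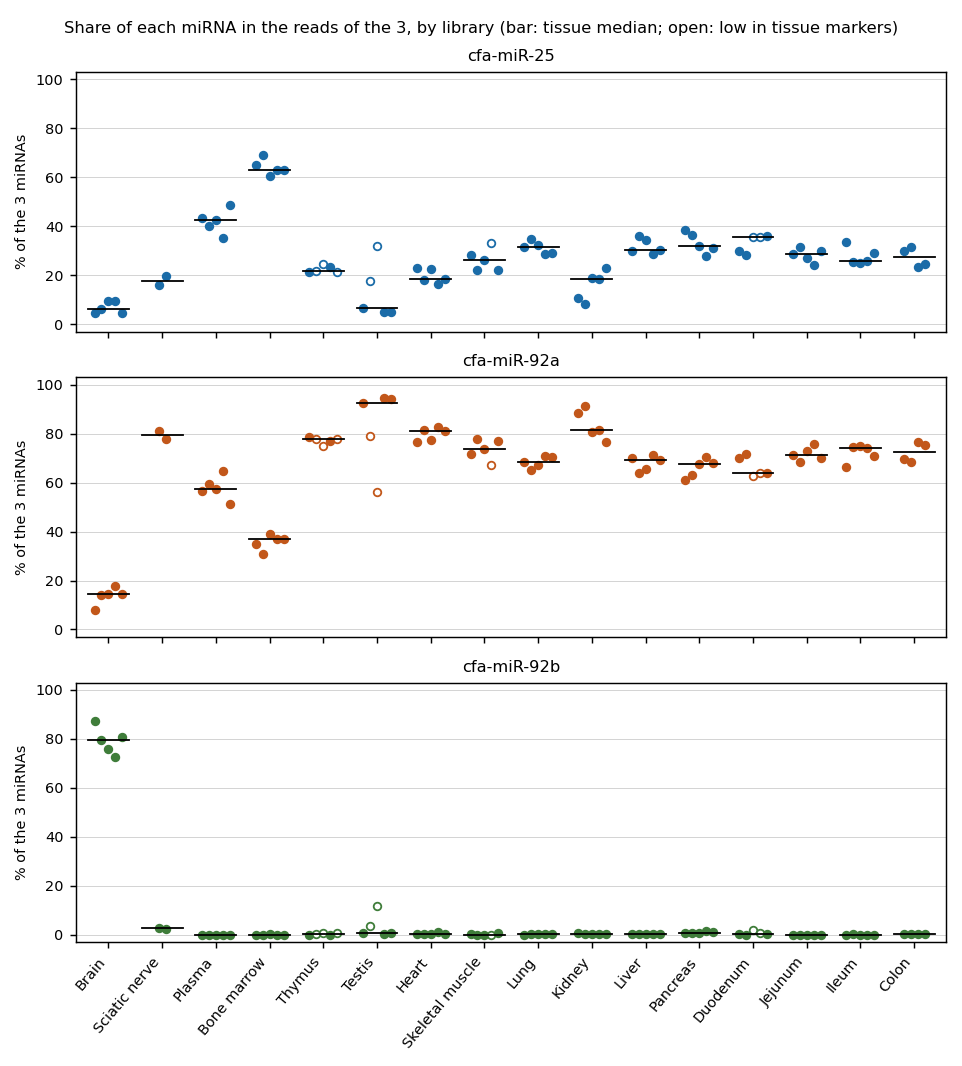
Share of each member in the reads of the 3 members, in percent, for each library by tissue, with a bar at the tissue median and open circles for the 8 libraries low in tissue markers. miR-92b has 72.8% to 87.3% in brain, miR-25 has 60.5% to 69.2% in bone marrow and 35.2% to 48.5% in plasma, and miR-92a has most of the reads in the remaining tissues.

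The ratio of miR-92a to miR-25 was compared between tissues as well. It lay between 0.444 and 0.647 in the bone marrow libraries and above 1 in every one of the other 71. In plasma it was 1.06 to 1.84, in brain 1.54 to 3.02, in sciatic nerve 3.97 and 5.09, in thymus 3.03 to 3.66 and in testis 1.76 to 19.1. The thymus libraries, which differed in the level of both miRNAs, thus kept a narrow range of the ratio. In testis the ratio had a median of 13.8 and was lowest in replicates 2 and 3, the libraries with few testis markers.

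Bone marrow makes the cells of the blood, and plasma is blood without most of its cells. All 3 members were lower in bone marrow than in plasma in edgeR, miR-25 by -3.07 ± 0.29 (adjusted p = 2.08e-14), miR-92a by -4.39 ± 0.39 (adjusted p = 1.71e-15) and miR-92b by -3.01 ± 0.75 (adjusted p = 0.000618), where 26.5% of the miRNAs were called lower. The part of the calls that were higher was 38.6%, and 64.1% with library size alone, under which the members were at -1.87, -3.20 and -1.94 and still called. Erythroid miR-451, miR-144 and miR-486 were also all called lower in bone marrow than in plasma, with a median of -3.14, and 2 of the 3 with library size alone.

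Brain and sciatic nerve are both neural tissue, one rich in nerve cell bodies and the other in Schwann cells and axons. miR-92b was higher in brain by 4.86 ± 1.03 (adjusted p = 9.54e-05, 27.1% of miRNAs called higher), and miR-25 and miR-92a were lower, by -1.59 ± 0.34 (adjusted p = 9.25e-05) and -2.61 ± 0.42 (adjusted p = 5.61e-07), where 17.9% were called lower. The part of the calls that were higher was 60.2%, and 80.4% with library size alone. Under that scaling miR-25 was at -0.91 and not called (adjusted p = 0.0792). Relative to the median of all miRNAs, the members were at 4.13 for miR-92b, -2.32 for miR-25 and -3.33 for miR-92a, and at 4.10, -2.30 and -3.38 with library size alone.

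Thymus and bone marrow both make blood cells. miR-92a was higher in thymus by 2.64 ± 0.36 (adjusted p = 7.17e-09, 27.5% of miRNAs called higher), and miR-25 stood at 0.03 ± 0.27. The median of all miRNAs was 0.78, so that miR-25 lay below it and miR-92a above. In RPM the median of miR-25 was 3073 in thymus and 5680 in bone marrow. The part of the calls that were higher was 72.9%, and 62.3% with library size alone. For miR-92b the difference was 2.56 ± 0.75 with all libraries (adjusted p = 0.00456) and -0.65 ± 0.82 without the 8 (adjusted p = 0.643), and it was also lost without thymus replicate 3 alone (1.82, adjusted p = 0.0682). miR-92a kept 2.86 ± 0.36 without the 8 libraries. The bone marrow side of miR-92b rests on 1 to 5 reads a library.

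The neighbours of the member genes, listed from the gene table, were compared in the same fit. In plasma both neighbours of the miR-25 gene were higher, miR-93 by 4.57 ± 0.14 and miR-106b by 3.50 ± 0.25, where 27.9% of all miRNAs were called higher. So were all 6 neighbours of the first miR-92a gene, with a median of 2.24 against -0.59 for all miRNAs. Of the 5 neighbours of the second gene, 2 were higher in plasma and 2 lower, with miR-20b at -2.30 ± 0.73 and miR-106a at -1.56 ± 0.57, where 24.8% of all miRNAs were called lower. These 2 had at most 2.88 RPM in any plasma library. miR-19b is made from both clusters and is counted in each list. In brain the neighbours were called lower with TMM scaling, 2 of 2 for miR-25, 6 of 6 for the first and 5 of 5 for the second gene of miR-92a, with medians of -1.72, -2.98 and -1.49 against 0.13. Of all miRNAs 28.1% were called lower there. With library size alone 0, 6 and 1 of these neighbours were called lower and 1 of the second gene's stood above 0, while each stayed below the median of all miRNAs, and DESeq2 called 2, 6 and 2 lower. Of all miRNAs, library size alone called 65 of 480 lower in brain and DESeq2 106 of 561. From the remaining 68 libraries 2, 6 and 2 were called lower in brain, and 3 of the second gene's neighbours in plasma, where 87 and 131 of 477 miRNAs were. These lists were taken with the levels of the members known.

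In 2 tissues miR-92a and the neighbours of its first gene went apart. In sciatic nerve 6 of 6 were called lower, where 14.4% of all miRNAs were, with a median of -2.80, from -1.97 ± 0.58 for miR-17-5p to -4.08 ± 1.10 for miR-19a, while miR-92a was called higher. Both neighbours of the miR-25 gene were called lower there too, miR-93 by -1.01 ± 0.34 and miR-106b by -3.61 ± 0.75, where miR-25 stood at 0.11. Scaled by library size, 5 of the 6 and 1 of the 2 were called lower, and without the 8 libraries 6 of the 6 and 1 of the 2. In bone marrow 3 of the 6 neighbours of the first gene were called higher, where 16.5% of all miRNAs were, and none lower, with 2.20 ± 0.34 for miR-19b, while miR-92a was called lower. Of the second gene's neighbours 2 were higher in bone marrow, miR-19b among them, and miR-363, with 197 to 370 RPM, was at -0.10 ± 0.37. DESeq2 and edgeR with library size alone each called 5 of the 6 and 3 of the 5 higher in bone marrow, and without the 8 libraries edgeR called 4 and 3.

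**Figure D5:**
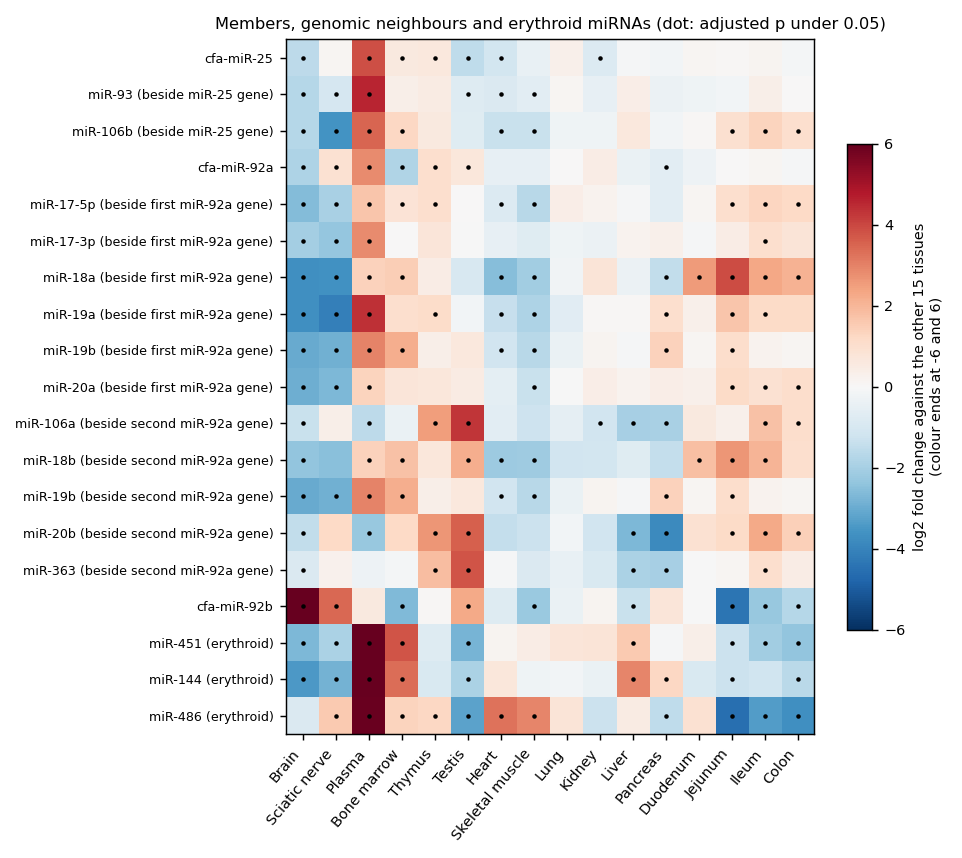
Log2 fold change from edgeR, each tissue against the other 15, for the members, the miRNAs beside their genes and 3 erythroid miRNAs, with a dot where the adjusted p is under 0.05 and the same colour range in both directions. With TMM scaling the neighbours of miR-25 are higher in plasma and lower in brain like miR-25, the second gene's neighbours of miR-92a reach 4.28 in testis, and the first gene's neighbours are lower in sciatic nerve, where miR-92a is at 0.93.

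Of the other miRNAs with this seed, miR-32 and miR-363 had rows in the table, and outside testis their tissue medians were below those of miR-25 and miR-92a. miR-363 had its highest tissue median in testis at 3992 RPM, followed by thymus at 633 RPM, and was called higher in both, by 3.77 ± 0.25 and 1.87 ± 0.30, and by 4.19 ± 0.17 and 1.57 ± 0.26 without the 8 libraries. miR-32 had its highest median in plasma at 135 RPM and was higher there by 4.43 ± 0.27 (adjusted p = 9.55e-24). In brain both were lower, miR-32 by -2.71 ± 0.50 and miR-363 by -0.88 ± 0.39. By library size scaling, and without the 8 libraries, only miR-32 was called lower there. Both had fewer reads than miR-92b in every brain library and fewer than miR-25 in every bone marrow library.

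The opposite arms of the hairpins were rare. Over all libraries miR-25-5p had 586 reads in 69 libraries, or 0.132% of the reads of both arms, and miR-92a-1-5p had 432 reads in 60 libraries, or 0.0398%. miR-92b-5p had 66 reads in 6 libraries, 64 of them in brain, where it was 0.0248% of both arms. The arm of the first miR-92a gene, miR-92a-1-5p, was higher in testis by 3.20 ± 0.47 (adjusted p = 3.89e-08), at 26.4, 7.29, 0.493, 36.4 and 97.5 RPM in replicates 1 to 5, which is 46 reads in all. In thymus it was higher by 1.59 ± 0.48 (adjusted p = 0.00881). These differences were 3.58 ± 0.44 and 1.91 ± 0.50 without the 8 libraries. An arm particular to the second gene was not analysed here.

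The miRNAs with the most similar pattern were sought over the mean log2(RPM + 1) of the 16 tissues, among 266 miRNAs with a tissue median above 100 RPM. These correlations are descriptions, since the points share libraries and scaling and 1 or 2 tissues can set them. For miR-25 they were hsa-miR-106b-3p (r = 0.93, Spearman rho 0.91), cfa-miR-93 (0.93 and 0.83), cfa-miR-16 (0.89 and 0.84), cfa-miR-15a (0.82 and 0.67) and cfa-miR-425 (0.75 and 0.61). Of these, miR-106b-3p and miR-93 come from the cluster of miR-25 itself. For miR-92a the values were lower, with cfa-miR-423a (0.73 and 0.49), hsa-miR-3184-5p (0.73 and 0.53), cfa-miR-93 (0.62 and 0.38), hsa-miR-331-5p (0.61 and 0.34) and cfa-miR-25 (0.61 and 0.46). miR-3184 lies opposite miR-423 on the same locus, and how their reads were divided is uncertain.

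For miR-92b the closest were hsa-miR-431-3p (r = 0.90, rho 0.47), cfa-miR-323 (0.90 and 0.42), cfa-miR-105b (0.88 and 0.52), hsa-miR-128-1-5p (0.88 and 0.57) and hsa-miR-129-2-3p (0.88 and 0.63). Each rho was well below its r. None of the 5 was among the closest 5 by rank correlation. Between the members, r was 0.61 and rho 0.46 for miR-25 and miR-92a, -0.07 and -0.03 for miR-25 and miR-92b, and 0.09 and 0.29 for miR-92a and miR-92b.

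Along the order of tissue medians, neighbouring tissues were compared by two-sided exact permutation tests of log2(RPM + 1). Of the 45 neighbouring pairs none passed after adjustment, and 6 had an unadjusted p below 0.05. Neighbours were set by the same values that were tested and are the closest tissues, so the lack of calls says little about the order. With 5 libraries against 5 the smallest p is 0.00794, and with 5 against 2 it is 0.0476, and all p-values were adjusted over the 45, so that the 3 pairs at 0.00794 had an adjusted p of 0.119. In 5 pairs the libraries did not overlap, namely plasma over bone marrow (1.86 on the log2 scale) and pancreas over testis (0.67) for miR-25, and brain over sciatic nerve (5.39), sciatic nerve over testis (1.29) and testis over lung (2.55) for miR-92b. For miR-92a no pair of neighbours was free of overlap. All other neighbouring pairs overlapped, so their order is not separated from the spread between libraries.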

How the data were processed

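Total RNA was isolated from tissue, bone marrow and plasma of untreated Beagles and made into libraries with a TruSeq small RNA kit. The authors used magnetic beads for tissue, another reagent and kit for bone marrow, and describe plasma separately. They also report low RNA integrity for plasma, bone marrow and part of the kidney samples. Differences of plasma or bone marrow from other tissues cannot be told apart from these differences in isolation and RNA integrity. Before deposition the authors clipped adaptors, aligned reads without mismatches to CanFam 3.1 with OSA v4, dropped reads that aligned to more than 10 genomic locations and counted reads over known and putative miRNA loci of dog, rat and human with bedtools. The deposited counts are whole reads per miRNA and library, and the deposited signal values are RPM, which the authors made by dividing each count by the total reads on miRNAs of that library. The deposited table lists no zeros, so an absent row was taken as 0, and its column with the highest RPM over all of the authors' samples was not used. Recomputed RPM differed from the deposited by a relative 2.89e-09 at most. Summed counts exceeded the stated totals by 0.0449% to 1.16%, and which reads make up the excess was not tested. No mature sequences were used here.

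Of 77 labelled samples, 1 colon sample had no values here, and 1 sample name of the table, a pool, matched no single label and was left out. Tissues were taken from the labels. The 147 pairs of libraries of a tissue all differed beyond sampling noise (lowest chi-square per degree of freedom 10.3). All tissues came from the same 5 dogs, but the labels name no dog for a library, so no test takes the shared dogs into account, and p-values treat libraries of different tissues as independent. The members and the lists of other miRNAs were chosen with earlier results of these data known. Genes beside the members were read by name and order from the RefSeq gene table of UU_Cfam_GSD_1.0, another build than that of the reads.

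Counts were tested with edgeR 4.0.16 (quasi-likelihood, TMM, filterByExpr, R 4.3.3) in 1 fit over all 76 libraries, with p adjusted by Benjamini-Hochberg over 480 miRNAs, and with DESeq2 1.42.0 as an alternative. TE was the ratio of the mean RPM of a tissue to that of all other libraries above 5, with a two-sided exact rank-sum test adjusted over 650 miRNAs. Shares were tested in the same way and adjusted over 48. Order was tested by exact permutation on log2(RPM + 1). Fits were checked on simulated data. Named miRNAs were the members, their opposite arms, other miRNAs of the seed, the neighbours, 3 erythroid miRNAs and the 5 most similar patterns. Markers of tissue and blood cells were named where they bear on a library. Depth sets the precision of low values, such as miR-92b in bone marrow.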

Additional observations from a re-analysis of the deposited data

Results flagged for a closer look

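Of 45 groups of member and tissue with 4 or 5 libraries, 1 held a library far from the others. miR-25 was at 4772 RPM in skeletal muscle replicate 4, while the next library had 1420 RPM, and the gap was 0.774 of the whole range of the group. Chance alone marks about 1 in 20 such groups. In the same library miR-206, a miRNA of muscle, was at 4.54 RPM, miR-1 at 9.07 RPM and miR-133a at 676 RPM. The part of this in the level of miR-25 was not tested.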

How the results depend on the processing

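The direction and call of miR-92b in brain and of miR-25 and miR-92a in plasma were the same under each alternative of the edgeR fit. The alternative without the 8 libraries low in their tissue's markers was chosen after seeing the data. No paired analysis was possible because the labels carry no dog number. Low counts limit miR-92b in bone marrow, jejunum, skeletal muscle and part of the thymus libraries. The causes below were not tested. In sciatic nerve each value rests on 2 libraries, and leaving out 1 assumes that the other varies like the remaining tissues.

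Without the 8 libraries miR-92b reversed in thymus, to -2.94 against the other tissues and -0.65 against bone marrow, and miRNAs called higher in thymus than in bone marrow went from 132 to 73 and those lower in brain from 135 to 87. With 1 library left out, miR-92b in thymus against bone marrow ranged from 1.82 (not called, without thymus replicate 3) to 2.87. With library size alone, miR-25 in brain against sciatic nerve was at -0.91 and not called, miRNAs higher and lower in bone marrow than in plasma were 123 and 69 (80 and 127 with TMM), and those lower in brain 65. Against sciatic nerve, brain had 130 miRNAs higher and 86 lower. The higher were 197 with DESeq2 size factors in edgeR, and the lower were 46 with library size, 49 with DESeq2 size factors and 47 with DESeq2. With 1 library left out these counts ranged from 66 to 144 and from 44 to 96, both lowest without sciatic nerve replicate 1. Those lower in brain against the other tissues were 86 with DESeq2 size factors. The TE ratio of miR-92a in plasma, 3.87, was 5.61 with medians and 6.33 with TMM-scaled counts.

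Of the 5 patterns most like miR-25, 3 were among the 5 by Spearman correlation and 3 among all detected miRNAs. For miR-92a these were 2 and 2, and 3 without the 8 libraries. For miR-92b they were 0 and 1, with 3 over libraries in place of tissues and 3 without the 8 libraries.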
